A study of Homo sapiens with 3 samples.

Results

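The array used for this series carried 45033 probe sets, and each was identified by 1 accession of the transcript it was designed against. Of these, 18038 (40.1%) had an accession that was not a RefSeq mRNA, meaning that it started neither with NM_, the prefix of curated RefSeq mRNAs, nor with XM_, the prefix of RefSeq mRNA models predicted from the genome. The members were chosen by that prefix alone, with no measured value. A name such as non-mRNA transcripts would not be borne out by the identifiers. None had the RefSeq prefixes of non-coding RNA (0 began with NR_ and 0 with XR_). All 18038 were plain GenBank accessions, 17623 in the format of 2 letters and 6 digits and 415 in the older format of 1 letter and 5 digits. They are therefore called GenBank rows here, and nothing in the identifiers says which of them code for protein.

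GenBank accessions are given to sequences as laboratories submit them, so 1 gene can stand in GenBank many times, as full-length copies, as alternative or partial forms and as transcripts that no curated record took up. The letters name the submission stream. BC is the prefix of the Mammalian Gene Collection, which cloned and sequenced full-length cDNAs chosen mainly for open reading frames, while AK holds the cDNAs of Japanese full-length sequencing projects. AB, AF, AJ and AY hold direct submissions by individual laboratories, and AL, BX and CR hold sequences of European projects, cDNA clones among them. The rows fell into 23 such classes, of which 17 had at least 20 rows and the 6 smaller ones held 52 rows together. BC was the largest with 10859 rows (60.2%), AK followed with 3229 (17.9%), and the remaining 3950 rows are called other GenBank rows. AF with 999, AY with 810, AB with 499 and CR with 407 rows were the largest of these.

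No gene name could be given to any of these rows, since neither the platform's gene table nor the RefSeq gene table listed their accessions (0 of 18038), against 18865 of 20952 NM_ rows and 1 of 6043 XM_ rows. For the same reason the fixed lists of long non-coding RNAs, snoRNA and miRNA host genes, antisense RNAs and small nuclear RNAs had 0 members among them. No position, role or sequence is given for a single row, because the sources used here hold none, and the results are described by class, level and size of difference.

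Transforming growth factor beta 1 (TGF-beta1) is a secreted cytokine that acts through receptor kinases and SMAD transcription factors, and in cells of mesenchymal origin it is known for inducing matrix and contractile genes. The cells were MNNG/HOS, an established human osteosarcoma line, cultured without serum, in which part of the culture leaves the dish as floating spheres. Those first spheres were removed, and the adherent cells left behind gave all 3 cultures. From a culture given 4 ng/mL TGF-beta1 for 5 days only the newly floating spheres were taken, a second culture received 4 ng/mL TGF-beta1 for 3 days, and the untreated adherent cells were kept without it for 5 days. Whether the day 3 RNA came from adherent cells, floating cells or both is not stated in the labels. Total RNA of each culture went on 1 single-colour array, so there were no replicates, no test was possible and no p-value is given. The number of arrays limits the precision of every value. Treatment, time and collected fraction differ together between the cultures and cannot be told apart, nor can a lower share of some cells from less RNA per cell.

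The deposited values are linear intensities for which the submitters' processing notes name RMA, a method that subtracts background, normalizes the arrays to each other and summarises the probes of a set. The 3 arrays did not share exactly 1 distribution. Median intensities over all rows were 445 in spheres, 437 at day 3 and 455 in untreated cells. Pearson's r between arrays across GenBank rows was 0.976 to 0.978, a description over rows that share 3 arrays. Of 7 osteosarcoma and mesenchymal marker genes read on NM_ rows, 5 exceeded the level filter described below on at least 1 array, with summed intensities of 47199 in spheres, 56122 at day 3 and 34994 in untreated cells. ALPL, alkaline phosphatase, and COL1A2, a type I collagen chain, stayed below it. Of 4 epithelial markers 3 exceeded it, with sums of 34053, 44649 and 50323 in the same order. CDH1, E-cadherin, was at 9.28 in spheres and 8.59 at day 3, and as dim in untreated cells. Of 3 endothelial markers 1 exceeded the level filter, with sums of 307, 1101 and 202. That marker was PECAM1, at 171 in spheres, 944 at day 3 and 65.6 in untreated cells. CDH5 was at 118, 126 and 110 and VWF at 17.9, 30.8 and 26.2, so the day 3 sum rests on PECAM1. Of 3 blood cell markers 0 exceeded the filter, with sums of 104, 146 and 108. The part of other cell types in the differences below was not tested.

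The GenBank rows covered nearly the whole intensity range. Their median was 477 in spheres, 442 at day 3 and 486 in untreated cells. NM_ rows had medians of 606, 617 and 617 on the same arrays, and XM_ rows 172, 181 and 167. Different probe sets bind with different strength, so a class median describes the rows on the array and does not rank transcripts by abundance. On every array 3626 GenBank rows (20.1%) lay below 54.1, the lower quartile of all values, against 20.7% of NM_ rows and 27.3% of XM_ rows. At the upper end 927 GenBank rows (5.14%) exceeded an intensity of 10000 on every array, against 965 NM_ rows (4.61%).

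The classes differed more from each other in level than the GenBank rows as a whole differed from NM_ rows. BC rows had medians of 825 in spheres, 698 at day 3 and 786 in untreated cells. AK rows were dim, at 169, 170 and 187 on those arrays. The 407 CR rows were the brightest of the larger classes, at 1209, 1333 and 1432, and the 810 AY rows the dimmest of those with at least 200 rows, at 131, 148 and 152. In BC the day 3 median was the lowest of the 3, while in AK, CR and AY the highest stood in untreated cells.

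**Figure D1:**
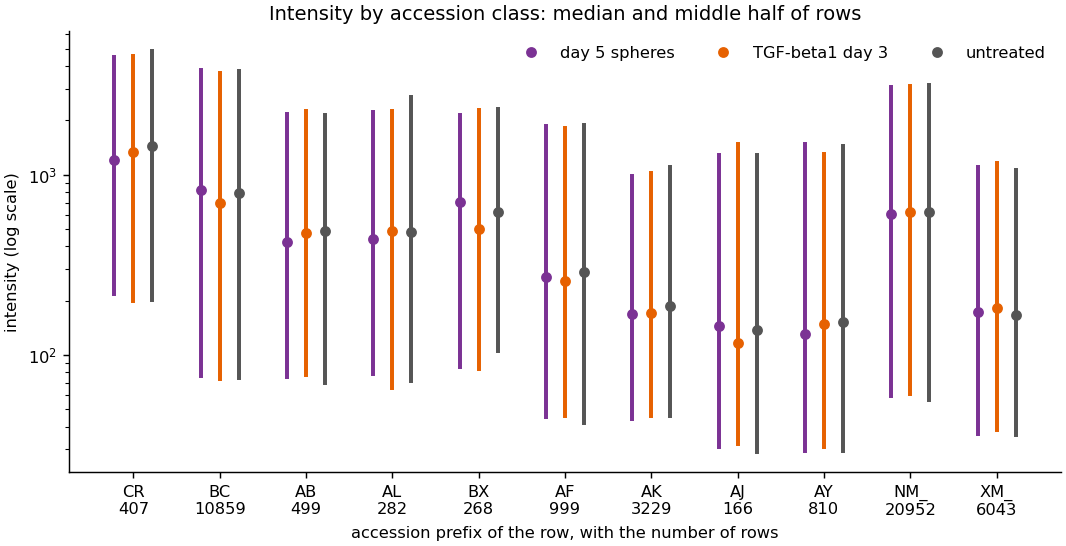
Intensity on a log axis for the 9 GenBank classes with over 150 rows and for NM_ and XM_ rows, in day 5 spheres, at TGF-beta1 day 3 and in untreated cells. Points are medians over the rows of a class and vertical lines run from the lower to the upper quartile of its rows; AK rows sit near 170 to 187 and BC rows at 698 to 825.

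A row entered the counts of differences when its highest value over the 3 arrays reached an intensity of 445, the median of all values. This level filter passed 9859 GenBank rows (54.7%), made up of 6564 BC rows (60.4% of that class), 1284 AK rows (39.8%) and 2011 other rows (50.9%). It passed 57.2% of NM_ rows and 40.3% of XM_ rows. A row can pass through the array where it is highest, so rows that differ are favoured among those near the filter. All rows were sorted into 20 equal bins of mean log2 level, and values of NM_ rows were weighted by the number of GenBank rows in each bin. This gives the value that NM_ rows have at the same levels, called the matched NM_ value.

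The size of differences depended on level far more than on the kind of accession. In the comparison of spheres with day 3 the robust standard deviation of log2 differences (from the median absolute deviation) was 0.34 among the dimmest twentieth of rows for GenBank rows and 0.36 for NM_ rows. It was widest between mean intensities of 441 and 671, at 0.95 for GenBank rows and 0.84 for NM_ rows. Among the brightest twentieth it was 0.18 and 0.19. Averaged over the bins of rows past the level filter, the spread of GenBank rows was 1.05 times that of NM_ rows for spheres against day 3. The ratio was 0.94 for spheres against untreated cells and 1.01 for day 3 against untreated cells. Over all 20 bins, with no level filter, the ratio for the 3 comparisons together ran between 0.85 and 1.13. Rows that stayed within 1.2-fold over all 3 arrays were as common in both kinds, with 2257 GenBank rows (22.9%) and a matched NM_ value of 22.9%.

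The first comparison sets the day 5 spheres against the day 3 culture, both given TGF-beta1. GenBank rows tilted towards higher values in the spheres. Of 9859 rows 759 (7.70%) were at least 2-fold higher, where the share over all 24278 rows past the filter was 6.30%, and 465 (4.72%) were at least 2-fold lower, where that share was 5.07%. Those overall shares include the GenBank rows themselves. The matched NM_ values were 5.79% higher and 5.66% lower, so NM_ rows had nearly equal shares in both directions at these levels.

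Most of the tilt lay in BC rows. Of 6564 BC rows 524 (7.98%) were at least 2-fold higher in spheres and 253 (3.85%) at least 2-fold lower, against matched NM_ values of 5.30% and 5.23%. Among 1284 AK rows the directions were closer, with 91 (7.09%) higher and 99 (7.71%) lower, against matched values of 7.60% and 7.25%. Other GenBank rows lay between them, with 144 of 2011 (7.16%) higher and 113 (5.62%) lower, against 6.25% and 6.07%. Within that group 33 of 322 AY rows (10.2%) were higher and 15 (4.66%) lower, against matched values of 6.16% and 6.12%. AB rows ran the other way, with 15 of 280 (5.36%) higher and 25 (8.93%) lower, against 7.09% and 6.78%. Without BC rows the higher share of the GenBank rows was 1.05 times the matched NM_ value, in place of 1.33 times with them.

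Differences of at least 4-fold kept the same order at smaller numbers. They were higher in spheres in 108 GenBank rows (1.10%, matched NM_ value 0.903%) and lower in 55 (0.558%, matched 0.837%). At 8-fold the higher share was near that of NM_ rows, with 22 rows higher (0.223%, matched 0.216%) and 14 lower (0.142%, matched 0.198%).

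The second comparison sets the spheres against untreated adherent cells, both cultured for 5 days. Here GenBank rows were close to NM_ rows in both directions. Of 9859 rows 429 (4.35%) were at least 2-fold higher in spheres, equal to the share of 4.35% over all rows past the filter, and 480 (4.87%) were at least 2-fold lower, beside an overall share of 4.84%. The matched NM_ values were 4.75% and 5.26%.

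The classes diverged beneath that sum. BC rows had 307 of 6564 (4.68%) higher and 271 (4.13%) lower, against matched NM_ values of 4.41% and 4.83%. AK rows were more often lower, with 44 of 1284 (3.43%) higher and 93 (7.24%) lower, against matched values of 6.04% and 6.75%. Other rows had 78 of 2011 (3.88%) higher and 116 (5.77%) lower, against 5.06% and 5.72%. In AK and in the other rows it was thus the higher share that fell short of the matched value, while the lower share stood near it. Without BC rows the higher share of GenBank rows was 0.68 times the matched NM_ value, in place of 0.92 times.

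The third comparison sets the TGF-beta1 day 3 culture against the untreated adherent cells. GenBank rows tilted towards lower values at day 3. Of 9859 rows 436 (4.42%) were at least 2-fold higher, where the overall share was 5.10%, and 576 (5.84%) were at least 2-fold lower, where the overall share was 4.79%. The matched NM_ values were 5.35% higher and 4.43% lower, a tilt in the opposite direction. The balance of GenBank rows depended on level: with the level filter at the upper quartile of all values 132 were higher and 94 lower. With each array centred on its median, 484 were higher and 499 lower. Against NM_ rows the tilt remained under both settings. The higher and lower shares were 0.94 and 1.38 times the matched NM_ values with the upper filter. They were 0.80 and 1.33 times with centring, in place of 0.83 and 1.32 times.

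This pattern was present in each of the 3 groups of classes. BC rows had 275 of 6564 (4.19%) higher and 355 (5.41%) lower, against matched NM_ values of 4.96% and 4.02%. AK rows had 73 of 1284 (5.69%) higher and 88 (6.85%) lower, against 6.92% and 5.89%. Measures without a threshold hardly had it in AK rows. Averaged over level bins past the filter, the AK median was -0.017 from the matched NM_ value, where that of BC rows was -0.087. Day 3 was the lowest array in 35.4% of AK rows, against a matched value of 36.5%. Other rows had 88 of 2011 (4.38%) higher and 133 (6.61%) lower, against 5.65% and 4.84%. Within that group not every class had the pattern. AB rows were near the matched values, with 18 of 280 (6.43%) higher against 6.45% and 15 (5.36%) lower against 5.50%. CR rows had 8 of 287 (2.79%) in each direction, below matched values of 4.87% higher and 4.32% lower. AY rows stood furthest from the matched value among classes with at least 100 rows past the filter, with 37 of 322 (11.5%) lower against 4.84%. XM_ rows went the other way, with 193 of 2434 (7.93%) higher at day 3 and 84 (3.45%) lower, against matched values of 6.33% and 5.36%. The comparisons share arrays in pairs, so a row that is low at day 3 adds both to the lower rows here and to the higher rows of spheres against day 3.

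**Figure D2:**
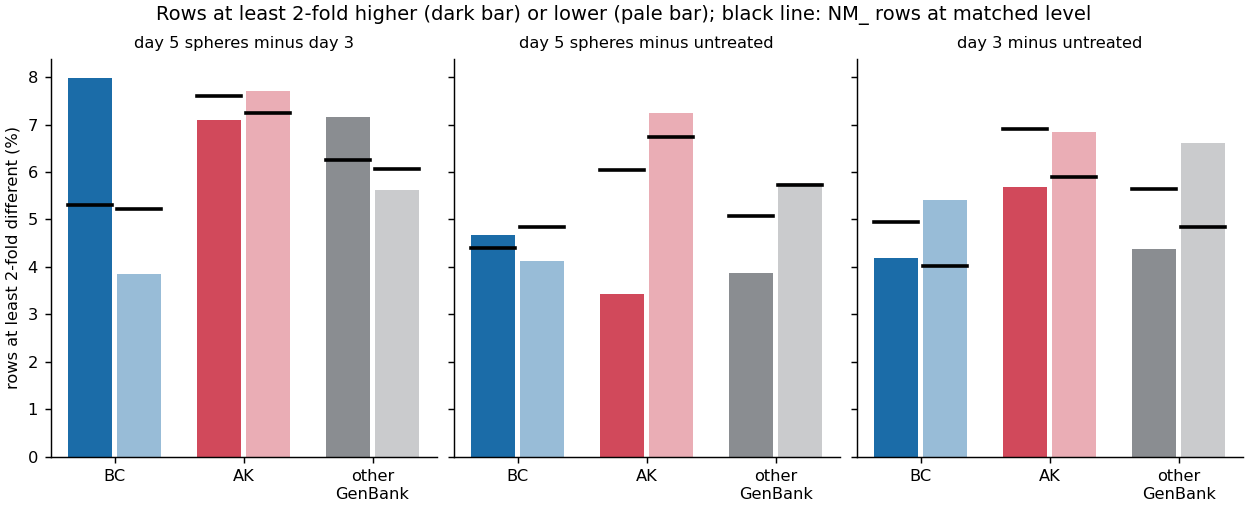
Percentage of rows past the level filter that were at least 2-fold higher (dark bars) or at least 2-fold lower (pale bars) for BC, AK and other GenBank rows in the 3 comparisons, with the matched NM_ value as a black line. For spheres against day 3 the BC bars stand at 7.98% higher and 3.85% lower around lines at 5.30% and 5.23%.

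The array on which a row had its lowest value gives the same data without a fold threshold. Day 3 was lowest in 4173 of 9859 GenBank rows (42.3%), spheres in 3084 (31.3%) and untreated cells in 2602 (26.4%). The matched NM_ values were 36.3%, 35.7% and 28.0% in that order. In BC rows day 3 was lowest in 44.1%, against a matched value of 36.1%, and spheres in 28.9%, against 35.7%. In AK rows spheres were lowest most often, in 39.6% against 35.8%, and day 3 in 35.4% against 36.5%. In XM_ rows untreated cells were lowest most often, in 41.3% against 28.2%, and day 3 was highest in 49.1% against 32.4%.

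The displacement of BC rows was small per row and concentrated at middle levels. The median log2 difference of spheres minus day 3 was 0.08 in BC rows past the filter and 0.00 in NM_ rows. Averaged over level bins it was 0.13 in BC rows, 0.14 above the matched NM_ value. In the bin of mean intensities from 441 to 671 the BC median was 0.24 and the NM_ median -0.05. For day 3 minus untreated the same bin had a BC median of -0.27 and an NM_ median of -0.05. In the brightest bin the BC medians were 0.01 and 0.00 for these 2 comparisons. BC medians lay above NM_ medians in 19 of 20 bins for spheres minus day 3 and below them in 17 of 20 bins for day 3 minus untreated. For spheres minus untreated they lay above NM_ medians in 17 of 20 bins. Averaged over level bins past the filter, that BC median was 0.05 above the matched NM_ value.

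Counts followed these medians. Among rows with mean intensities from 183 to 989 and past the filter, 340 of 1497 BC rows (22.7%) were at least 2-fold higher in spheres than at day 3 and 138 (9.22%) lower, while NM_ rows of the same band had 13.9% and 11.9%. The filter at 445 falls inside this band. Rows with a mean below it passed only through their highest array, which raises the shares of both BC and NM_ rows. For day 3 against untreated cells the BC rows of that band had 9.89% higher and 15.9% lower, and NM_ rows 12.3% and 11.3%. Among rows over 3635, only 15 of 2728 BC rows were at least 2-fold higher in spheres than at day 3 and 18 lower, beside 20 and 38 of 4581 NM_ rows. With the level filter at the upper quartile, the BC median for spheres minus day 3 was 0.075 above the matched NM_ value, in place of 0.14, and that for day 3 minus untreated was -0.028 from it, in place of -0.09.

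Level also moved the NM_ rows themselves. Their median for day 3 minus untreated was 0.22 between mean intensities of 37.7 and 55.1 and -0.09 between 671 and 989. BC rows had 0.23 and -0.21 in those bins, so they lay near NM_ rows at low level and below them at middle level. The part of array normalization in this level dependence was not tested.

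**Figure D3:**
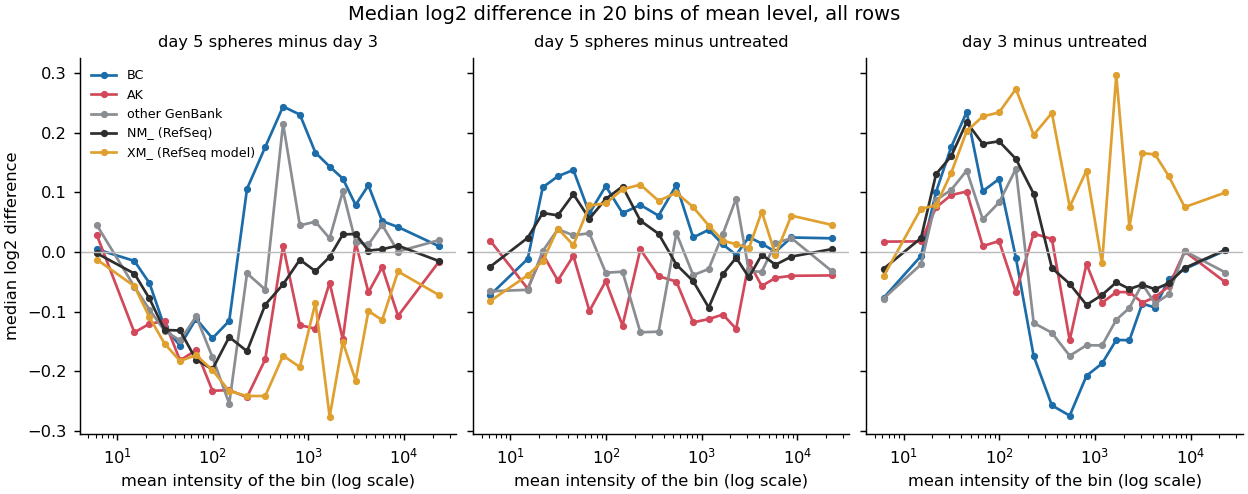
Median log2 difference of BC, AK, other GenBank, NM_ and XM_ rows in 20 bins of mean intensity (log axis), with no level filter, for the 3 comparisons. BC medians reach 0.24 for spheres minus day 3 and -0.27 for day 3 minus untreated between intensities of 441 and 671, where NM_ medians are -0.05.

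Within the BC class the accession number, which follows the order of submission, tracked level. The 1977 BC rows numbered up to 9995 had a median of 3688 in mean intensity over the 3 arrays (on the log2 scale), and 84.7% of them passed the level filter. The 1447 rows numbered 10006 to 19954 had a median of 2018. The 1004 rows numbered 20057 to 29918 were at 433, and the 2338 rows numbered 80180 to 114569 at 208, with 45.2% past the filter. The order was not strictly downward, since the 513 rows from 50008 to 59950 had a median of 763.

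Every one of these 9 blocks of BC numbers had a median for spheres minus day 3 above the matched NM_ value, by 0.06 to 0.24, and a median for day 3 minus untreated below it, by values between -0.03 and -0.15. The earliest and brightest block was nearest to NM_ rows in both. The blocks from 20057 to 39905 were furthest. For spheres minus untreated the 9 blocks lay between -0.01 and 0.07 from the matched value. Only the block from 70035 to 79835 was below it. The displacement of BC rows in the comparisons with the day 3 array was therefore spread over the collection and not held by 1 stretch of accessions.

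**Figure D4:**
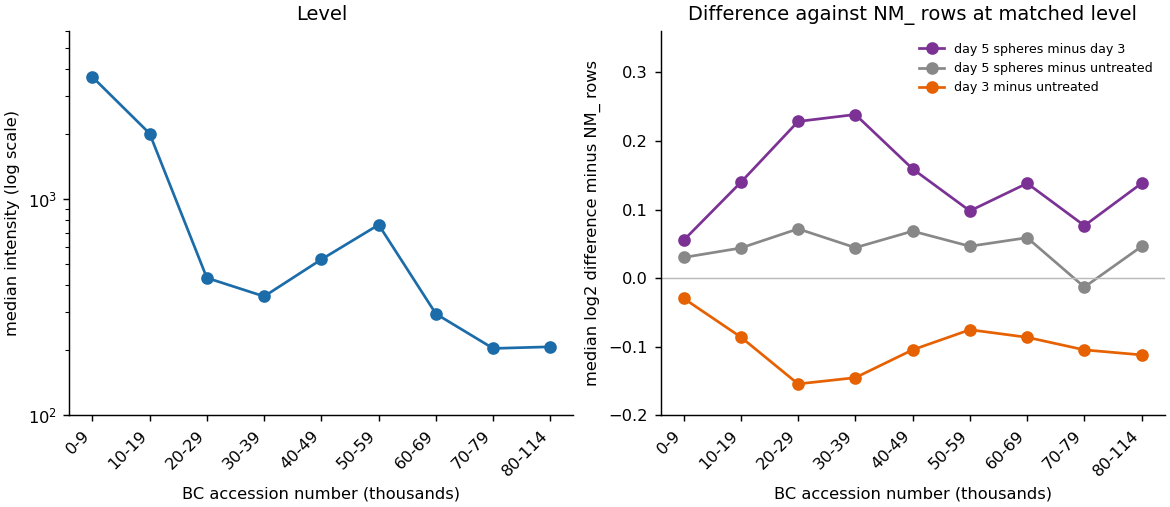
Left, median intensity (log axis) of BC rows in 9 blocks of accession number; right, median log2 difference of each block minus that of NM_ rows at matched level for the 3 comparisons. The level drops from 3688 in the first block to 208 in the last, and the curve of spheres minus day 3 stays between 0.06 and 0.24.

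Single GenBank rows differed by up to 76.0-fold. The 10 highest and 10 lowest rows past the filter in each comparison made 60 entries and 51 distinct rows. Of these 51 rows 36 (70.6%) were BC rows, a class that made up 66.6% of GenBank rows past the filter. In 17 of the 51 the lowest value lay under 54.1, the lower quartile of all values, where background weighs most and the size of a fold is uncertain. No detection call was at hand to say whether such values stood above background. The 2 most extreme rows in each direction and comparison are given by accession, since no table names them.

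Between spheres and day 3 the 10 highest rows were 14.2-fold to 22.6-fold higher in spheres, and the 10 lowest 10.1-fold to 18.4-fold lower. BC011883 had an intensity of 1512 in spheres, 66.9 at day 3 and 221 in untreated cells. AK223305 had 2262 in spheres, 107 at day 3 and 555 in untreated cells, a 21.1-fold difference between the first 2. In both rows the day 3 value was the lowest of the 3.
In the other direction BC011453 had 130 in spheres, 2394 at day 3 and 73.2 in untreated cells, and was 18.4-fold lower in spheres than at day 3. BC069546 exceeded the level filter on all 3 arrays, at 608 in spheres, 10759 at day 3 and 4292 in untreated cells. It was 17.7-fold lower in spheres than at day 3. Both peaked at day 3, while BC069546 alone was lower in spheres than in untreated cells.

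Between spheres and untreated cells the 10 highest rows were 14.3-fold to 39.9-fold higher in spheres and the 10 lowest 9.23-fold to 62.6-fold lower. BC030637 had 2175 in spheres, 202 at day 3 and 54.5 in untreated cells, and was 39.9-fold higher in spheres than in untreated cells. BC101070 had 3059 in spheres, 2273 at day 3 and 77.5 in untreated cells, a 39.5-fold difference. At day 3 BC030637 was far below its sphere value, while BC101070 was already high. With 64 added to every intensity, the log2 difference of BC030637 was 4.24, in place of 5.32, and that of BC101070 was 4.46, in place of 5.30.
BC009681 had 24.7 in spheres, 29.8 at day 3 and 1548 in untreated cells, 62.6-fold lower in spheres. AL832379 had 39.9 in spheres, 27.1 at day 3 and 935 in untreated cells, 23.5-fold lower. Both were near the bottom of the range on the 2 treated arrays, and with 64 added to every intensity their log2 differences were -4.18 and -3.27, in place of -5.97 and -4.55.

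Between day 3 and untreated cells the 10 highest rows were 17.7-fold to 38.5-fold higher at day 3 and the 10 lowest 14.7-fold to 76.0-fold lower. CR606412 had 1918 in spheres, 5987 at day 3 and 155 in untreated cells, 38.5-fold higher at day 3 than untreated. BC055089 had 364 in spheres, 1833 at day 3 and 52.5 in untreated cells, 34.9-fold higher at day 3. Both were highest at day 3 and kept a value above untreated cells in the spheres. The untreated value of BC055089 lay under the lower quartile of all values. With 64 added, its log2 difference was 4.03, in place of 5.13, and that of CR606412 was 4.79, in place of 5.27.
AK125960 had 355 in spheres, 24.7 at day 3 and 1877 in untreated cells, 76.0-fold lower at day 3. BC009681 was again among the lowest, 51.9-fold lower at day 3, against the same untreated value as in the comparison with spheres. With 64 added, AK125960 differed by -4.45 in log2, in place of -6.25.

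**Figure D5:**
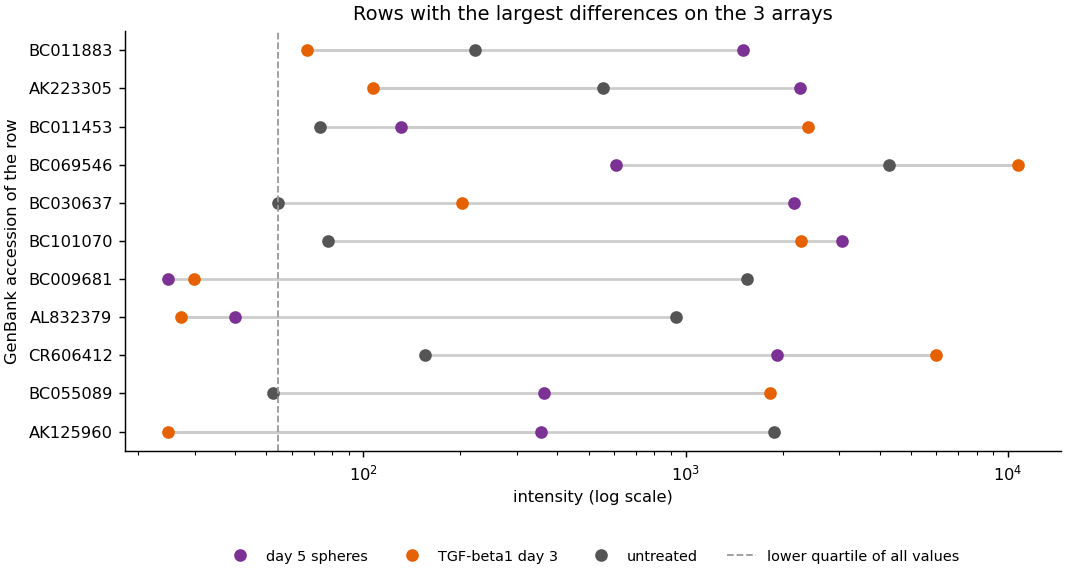
Intensity (log axis) of the 11 rows named above in day 5 spheres, at TGF-beta1 day 3 and in untreated cells, with the lower quartile of all values as a dashed line. BC009681 and AL832379 lie left of that line in both treated cultures and at 1548 and 935 in untreated cells.

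Smaller classes held large differences too. The largest among AF rows was an 18.9-fold higher value in spheres, at 1523 against 80.7 at day 3. With 224 in untreated cells, that row had values close to those of BC011883, and whether both measure 1 gene could not be checked. Among AY rows the largest was a 12.4-fold higher value in spheres, at 1790 against 144 in untreated cells. A BX row was 10.4-fold higher in spheres, at 1890 against 181 at day 3, and an AB row was 8.93-fold lower in spheres, at 314 against 2808 at day 3. Among the 77 rows with prefix M, which dates from the early years of GenBank, 1 was 21.5-fold lower at day 3, at 21.4 against 461 in untreated cells. That row passed the filter through the untreated array alone. Its sphere value of 49.5 and its day 3 value lay under the lower quartile of all values, so the size of the fold is uncertain. The 5 classes L, D, AX, X and DQ, each with 20 to 37 rows past the filter, held from 0 to 4 rows at least 2-fold different per direction and comparison, too few for a share.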

How the data were processed

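The deposited files hold a linear intensity for each probe set on each array, for which the submitters' processing notes name RMA. The version, scanner, annotation build and route to linear values were not given in the sources used here. The arrays' distributions were alike but not identical. The intensity ran from 2.37 to 51530, and log2 was taken with no offset.

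Rows were grouped by accession prefix and compared, with 1 array per group and no test, by a fixed rule of at least 2-fold. Matched NM_ values are averages over 20 level bins, weighted by the rows of the class. Medians and spreads per class used bins with at least 20 rows of both kinds, and those per block of BC numbers at least 10. The procedure was run on simulated data in which BC rows were lowered by a constant at day 3. This checks the calculation only, since the simulated noise was independent between rows and alike in all classes at a given level. Members were chosen by accession prefix and by no measured value, but that choice, the lists and the rules were made with earlier results of these data known. The naming rule took the 10 highest and 10 lowest rows per comparison past the filter, the extreme rows of each class, list members and genes with both kinds of row. Only 2 accessions per direction are printed, and the rule's list members and genes with both kinds of row found none. Python 3.11.15, numpy 2.4.6, pandas 2.3.3 and matplotlib 3.10.9 were used. Alternatives covered the filter, scaling, offset, threshold, bins, matching and comparison rows.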

Additional observations from a re-analysis of the deposited data

How the results depend on the processing

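Results were recomputed under 13 alternatives, of which leaving out BC rows and subtracting the NM_ median of the level bin were chosen after seeing the data, as were all alternatives for BC rows. Leaving out rows of genes that also have an NM_ row, and the comparison of paired rows of a gene, could not be run because no GenBank row had a gene name. No paired analysis was possible because there is 1 array per group. No difference of a named accession changed sign. These rows were chosen for their large differences, and neither a filter nor an added constant can turn such a sign. A BC median minus the matched NM_ median did not change sign either, and subtracting the NM_ median of the bin cannot alter it. The plain median of GenBank rows, which is near 0, did change sign: for spheres minus day 3 it was 0.06, but -0.007 with no level filter and -0.002 without BC rows, and for spheres minus untreated it was 0.007, but -0.03 without BC rows. Counts of GenBank rows higher and lower followed the filter, the threshold and the rows counted, as those choices are built to do. With no level filter they were 1394 and 757 for spheres against day 3, 840 and 1010 for spheres against untreated cells, and 922 and 1290 for day 3 against untreated cells. In the same order they were 125 and 116, 122 and 107, and 132 and 94 with the filter at the upper quartile, so that the balance turned in the last 2 comparisons. It also turned for spheres against untreated cells, at 455 and 446, with each array centred on its median. At 1.5-fold they were 1715 and 1164, 1032 and 1257, and 920 and 1489. At 3-fold they were 233 and 142, 153 and 156, and 153 and 163. Without BC rows they were 235 and 212, 122 and 209, and 161 and 221. These counts alone do not set GenBank rows against other rows, and several ratios to the matched NM_ share are given below.

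The share of GenBank rows over the matched NM_ share, 1.33 for rows higher in spheres than at day 3, was 1.21 with no filter, 1.23 at 3-fold, 1.43 with NM_ and XM_ rows as the comparison and 1.05 without BC rows. For rows lower in spheres than at day 3 it was 0.91 at 3-fold and 0.99 without BC rows, in place of 0.83, and in BC rows 0.88 at 3-fold, in place of 0.74. For spheres against untreated cells the higher ratio, 0.92, was 1.01 with the upper filter and 0.68 without BC rows, the lower ratio, 0.93, was 1.05 with no filter and 1.04 without BC rows, and the higher ratio of BC rows, 1.06, was 0.91 at 3-fold. For day 3 against untreated cells the lower ratio, 1.32, was 1.21 with no filter, 1.17 at 3-fold and 1.38 with the upper filter. The higher ratio, 0.83, was 0.94 with that upper filter. With the upper filter the BC median minus the matched NM_ median was 0.075 for spheres minus day 3, in place of 0.14, and -0.028 for day 3 minus untreated, in place of -0.09. The causes were not tested. Array centring and quantile normalization left every count within 1.5-fold. Every plain median of GenBank rows moved by less than 0.1 in log2, but that limit exceeds the medians themselves. Centring moved the median for day 3 minus untreated from -0.08 to -0.03. Counts and plain medians do not depend on bin numbers or on matching by the highest value. Those settings left each BC median minus the matched NM_ median within 0.05 of its main value. With 64 added, 6 of 12 differences of named rows shrank by more than 1 in log2.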
